A study of Phaseolus vulgaris with 24 samples.

Results

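The levels of 3 transporter genes of common bean (Phaseolus vulgaris L.) were followed through leaves and roots of 2 genotypes grown with and without salt: Phvul.001G077000, annotated as amino acid permease 1-related, Phvul.001G154200, annotated as sulfate transporter 3.1-related, and Phvul.001G130700, annotated as an ATP-binding cassette (ABC) transporter. They are 3 of the 27213 genes in the deposited count tables and were taken by identifier and by the annotation in the study's supplement. They had been selected on their read counts in roots, through the study's list of intensity differences. That list took genes with a sharp salt response in Ispir roots and no such response in TR43477 roots. Every value of the 3 genes in roots, also between genotypes, is therefore given below as a description, without a test. Tests of the 3 are restricted to leaves. All 3 genes lie on chromosome 1 of genome version 2.1. The permease gene spans 11268809 to 11274193 on the plus strand, the ABC transporter gene spans 36235622 to 36241937 on the plus strand, and the sulfate transporter gene spans 40435448 to 40442735 on the minus strand. None of the 3 spans overlaps another gene of the table.

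The study compared Ispir, described by its authors as salt-tolerant, with TR43477, described as salt-susceptible. Seedlings of both genotypes were raised in hydroponics, and the Ispir seedlings were older at transfer than those of TR43477. Salt-treated plants received NaCl from 5 days after transfer at 50 mM on the first day and 100 mM on the second, and were then kept at 125 mM for 3 days, whereas control plants received none. Poly(A)+ RNA was sequenced from Ispir leaves (IL), TR43477 leaves (TL), Ispir roots (IR) and TR43477 roots (TR), with 3 plants as replicates in each of the 8 groups. Which leaf and root libraries came from the same plant is not stated, so leaf and root may not be independent. Since RNA came from whole tissue, fewer cells of a type and less RNA per cell cannot be told apart in any value below.

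Plants move nitrogen and sulfur between organs as amino acids and sulfate, and both cross membranes through dedicated carriers. In Arabidopsis, amino acid permeases import amino acids into cells together with protons, and members of the group 3 sulfate transporters, to which the sulfate gene is related by its annotation, have been tied to sulfate uptake by chloroplasts. ABC transporters use ATP to carry very different substrates, and the annotation of Phvul.001G130700 names none. High soil NaCl disturbs ion and nutrient uptake by roots, which is why carriers of this kind are examined in salt-stress studies.

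Library totals ranged from 12163655 to 26416766 counts. Levels are given as CPM, the counts of a gene scaled to a common library size and further scaled by the trimmed mean of M-values (TMM), and they are compared between libraries of 1 gene, never between genes, because they are not corrected for gene length. A count of 3, used as the floor of detection in each library, corresponded to 0.0975 to 0.298 CPM. The summed level of 16 genes for light-harvesting chlorophyll a/b proteins of the Lhcb1 to Lhcb6 families, the leaf markers, was 2294 to 54161 CPM in leaves and 30.2 to 448 CPM in roots, so the tissue labels held. No marker was at 0 in every leaf library of a genotype, whereas 2 of the 16 were at 0 in all Ispir root libraries and 4 of the 16 in all TR43477 root libraries. In TL the markers themselves differed with treatment, with 27950 to 54161 CPM in control and 2294 to 3002 CPM in salt, and 15 of the 16 were lower in every salt library than in every control library. In control TR, replicate 3 stood apart with 448 CPM against 136 and 145 CPM in the others, and results that rest on it are given with and without it.

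**Figure D1:**
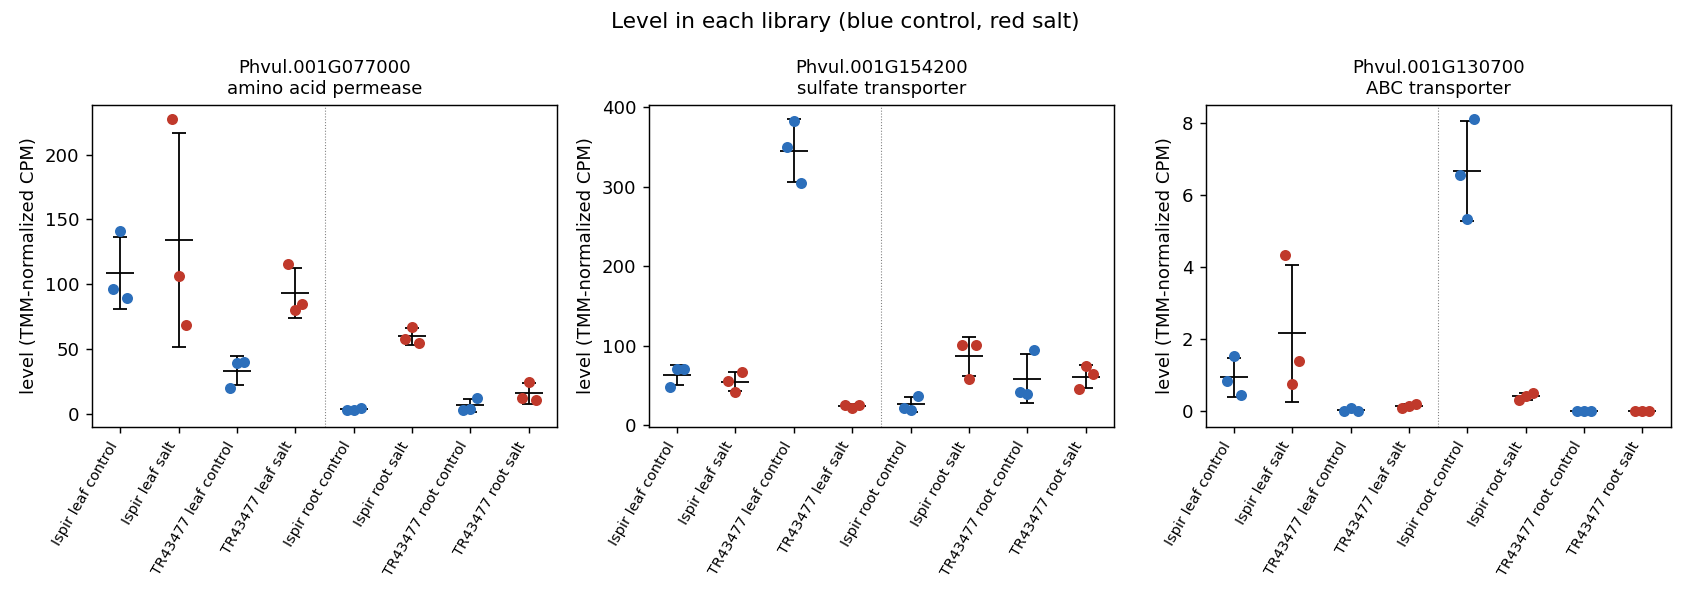
Level of each gene in every library, in TMM-normalized CPM on a linear axis with a separate scale for each gene. Points are single plants, blue for control and red for salt, and bars give the mean and SD of 3. The sulfate gene stands highest in control TL at 304 to 382 CPM, and the ABC gene is near 0 in all TR43477 libraries.

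The amino acid permease gene Phvul.001G077000 had a higher mean in leaf than in root in each genotype and treatment, as a description only. No leaf comparison placed it past both thresholds. A gene was called when its log2 fold change exceeded 1 in either direction and its adjusted p was below 0.01 in edgeR's quasi-likelihood test. In IL it stood at 95.9, 141 and 89.0 CPM in control (109 ± 28.01, SD, n = 3) and at 227, 106 and 68.6 CPM in salt (134 ± 82.8). The salt libraries of IL spanned the whole range of the controls and beyond, and the log2 fold change was 0.29 with a standard error of 0.43 (adjusted p = 0.65). In TL it stood at 20.1, 39.0 and 40.3 CPM in control (33.2 ± 11.3) and at 116, 80.1 and 84.4 CPM in salt (93.4 ± 19.4). All salt libraries of TL were above all control libraries, by 2.82-fold on the means, and the log2 fold change of 1.499 ± 0.32 missed the adjusted p threshold (adjusted p = 0.026). Groups without overlap were found for 42.1% of all genes in TL. With DESeq2 the same comparison gave an adjusted p of 4.3e-04 at a log2 fold change of 1.49, so the call depended on the tool.

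The permease level in control leaves was 3.27-fold higher in Ispir than in TR43477 with no overlap, a log2 difference of 1.74 ± 0.35 that did not pass in edgeR (adjusted p = 0.042). Groups without overlap were found for 30.5% of all genes in this comparison. In salt-treated leaves the Ispir mean was 1.435-fold that of TR43477, and the ranges overlapped (log2 difference 0.52 ± 0.39, adjusted p = 0.31). Leaving out the first Ispir salt replicate, which carried 227 CPM, brought this difference to −0.09. The difference between the salt responses of the genotypes, Ispir minus TR43477, was −1.20 ± 0.58 on the log2 scale (adjusted p = 0.18). These leaf comparisons use the same libraries in different pairings and are not independent of each other.

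In roots, the setting from which the gene had been chosen, the permease was low in control and higher in salt. Control IR gave 2.74, 3.22 and 4.30 CPM (3.42 ± 0.803) and salt IR gave 57.3, 67.3 and 54.6 CPM (59.8 ± 6.70), a 17.5-fold higher mean. Control TR gave 3.28, 3.87 and 12.1 CPM (6.43 ± 4.95) and salt TR gave 11.99, 24.7 and 10.4 CPM (15.7 ± 7.80), a 2.44-fold higher mean with overlapping ranges. The overlap in TR came from control replicate 3, which was also the library high in leaf markers. The fitted log2 fold change in TR was 1.24 with this library and 2.12 without it, and the fitted difference of the root responses, Ispir minus TR43477, was 2.86 with it and 1.98 without it. In salt-treated roots the Ispir libraries were above all TR43477 libraries, by 3.81-fold on the means. Absence of overlap was seen for 34.6% of all genes in IR, 23% in TR and 36.5% between the salt-treated roots of the genotypes, and nothing is read from these counts because roots chose the gene.

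Across the 8 groups the permease level was in the order salt IL, control IL, salt TL, salt IR, control TL, salt TR, control TR and control IR. The 3 highest groups overlapped each other in sequence, salt IR stood clear of its neighbours on either side, and the ranges of the last 4 groups overlapped from each to the next. The leaf mean exceeded the root mean 31.7-fold in control Ispir and 2.24-fold in salt Ispir, against 5.16-fold and 5.95-fold in control and salt TR43477. Without replicate 3 the control TR mean was 3.58 CPM. The control ratio in TR43477 is then larger than 5.16-fold and also exceeds the ratio in salt. The lower ratio in salt-treated Ispir went with the 17.5-fold higher root level, and the leaf level had no call. The share of all genes without overlap between leaf and root was not computed, and roots chose the gene. Nothing is therefore read from these ratios.

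The sulfate transporter gene Phvul.001G154200 fell in TR43477 leaves under salt and gave no such call in Ispir leaves. In TL it stood at 351, 382 and 304 CPM in control (346 ± 39.3) and at 25.6, 21.8 and 25.99 CPM in salt (24.5 ± 2.28). The control level in TL was above that of every other library of the series, and the salt level lay 14.1-fold below it with very little spread. The log2 fold change was −3.81 ± 0.20 (adjusted p = 6.4e-04), against a background of 5.09% of genes called in either direction with 2.62% higher and 2.46% lower in TL. By size it was not extreme, since 939 genes had a more negative log2 fold change, but its p-value ranked 19 of the 22672 genes tested. Leaving out any 1 of the salt-treated TL libraries left the log2 fold change between −3.85 and −3.73 and moved the adjusted p to 0.012 to 0.014, just over the threshold. The summed leaf markers moved in the same libraries, as given above, and their part in this result was not tested.

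In IL the sulfate gene stood at 48.3, 70.5 and 71.2 CPM in control (63.3 ± 13.05) and at 56.3, 42.0 and 66.7 CPM in salt (55.0 ± 12.4). These ranges overlapped almost wholly, with a log2 fold change of −0.21 ± 0.23 (adjusted p = 0.54). Of all genes tested, 4.81% were called in IL and 40.4% had groups without overlap. The summed leaf markers in IL were 9624 to 42145 CPM in control and 19160 to 40340 CPM in salt. The difference between the 2 leaf responses was itself called, at 3.61 ± 0.31 on the log2 scale (adjusted p = 5.1e-04), where 5.14% of all genes were called, 3.1% with a positive and 2.04% with a negative difference. Its p-value ranked 6 of 23306, and the call was kept on leaving out each of the 12 leaf libraries in turn, with log2 values of 3.44 to 3.78 and adjusted p of 2.6e-04 to 0.0032.

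The direction of the genotype difference in leaves was opposite in control and in salt. In control leaves the TR43477 mean was 5.46-fold that of Ispir with no overlap, a log2 difference of −2.41 ± 0.28 (Ispir minus TR43477) whose adjusted p of 0.0101 was at the threshold and just missed it. In this comparison 0.535% of all genes passed, 0.268% higher in Ispir and 0.268% lower. The same difference passed with DESeq2 (−2.46, adjusted p = 3.2e-18), with all 12 leaf libraries in 1 fit (−2.44, adjusted p = 1.0e-04) and with edgeR's filterByExpr filter on low counts (−2.43, adjusted p = 0.0097). It did not pass with upper-quartile normalization (adjusted p = 0.0106) or without any 1 of the 6 libraries (adjusted p = 0.0107 to 0.070). In salt-treated leaves the Ispir mean was 2.25-fold that of TR43477 with no overlap, and the log2 difference of 1.17 ± 0.19 was called (adjusted p = 0.0015). In this comparison 22.9% of all genes were called, 11.4% higher and 11.5% lower, and 59.2% had groups without overlap, so the call there was a common one. Without Ispir leaf salt replicate 3 the log2 difference was 1.00, just under the fold threshold, with an adjusted p of 0.0030.

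**Figure D2:**
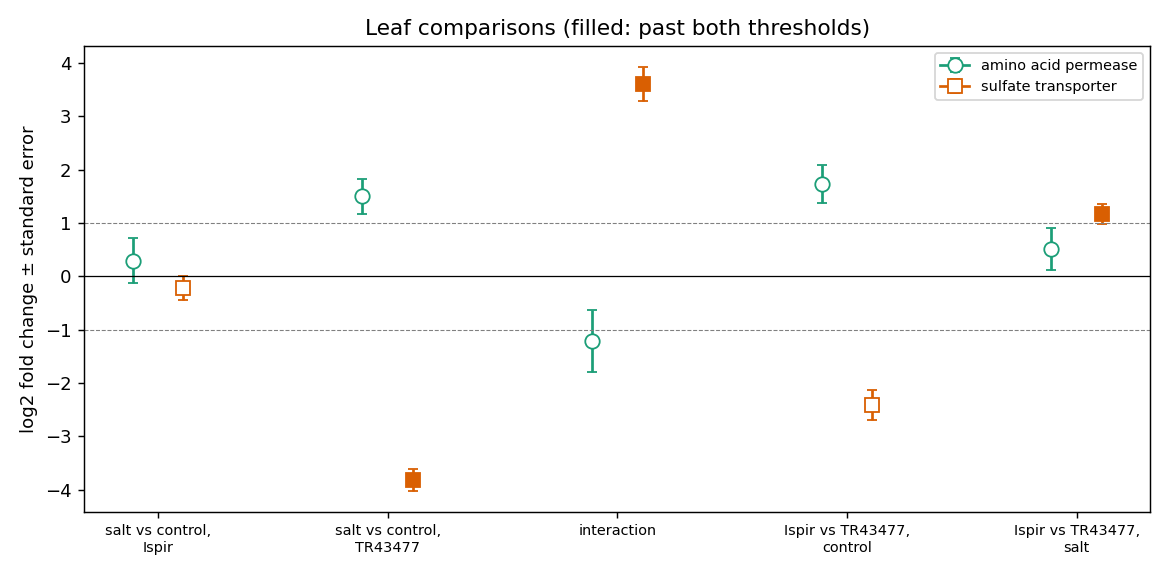
Log2 fold changes with standard errors of the permease gene and the sulfate transporter gene in the 5 leaf comparisons, with filled symbols for those past both thresholds and dashed lines at a log2 fold change of 1 in either direction. The interaction is the Ispir response minus the TR43477 response. The sulfate gene runs from −3.81 in TL to 3.61 in the interaction, whereas the permease gene is nowhere past both thresholds.

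In roots, described only, the sulfate gene was higher under salt in Ispir, and its ranges overlapped between treatments in TR43477. Control IR gave 21.8, 19.8 and 36.9 CPM (26.2 ± 9.35) and salt IR gave 100.4, 58.3 and 100.9 CPM (86.5 ± 24.4), a 3.31-fold higher mean with no overlap. Control TR gave 42.0, 39.6 and 94.9 CPM (58.8 ± 31.3) and salt TR gave 45.8, 74.3 and 64.0 CPM (61.4 ± 14.5). The highest control value in TR was again replicate 3, above every salt library, and the fitted log2 fold change was 0.02 with it and 0.58 without it. In control roots the TR43477 mean was 2.25-fold that of Ispir with no overlap, and the fitted log2 difference of −1.16 became −0.61 without that library. Groups without overlap made up 32.9% of all genes between the control roots.

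Control TL stood alone at the top of the group order for the sulfate gene. Below it, salt IR, control IL, salt TR, control TR and salt IL formed a series in which each range overlapped the next, and control IR and salt TL were the lowest and overlapped each other. Leaf exceeded root in both genotypes without salt, 2.42-fold in Ispir and 5.88-fold in TR43477. Without replicate 3 the control TR mean was 40.8 CPM, below salt IL in the order above, and the 5.88-fold ratio is then larger. Under salt the order was reversed in both, with the root mean 1.57-fold above the leaf mean in Ispir, where the ranges overlapped, and 2.51-fold above it in TR43477, where they did not. The share of all genes without overlap between leaf and root was not computed, so nothing is read from this.

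The ABC transporter gene Phvul.001G130700 was counted in Ispir and hardly at all in TR43477. The 12 Ispir libraries held 452 of its counts, 121 in leaves and 331 in roots, and each was above the floor of 3 counts. The 12 TR43477 libraries held 7 counts, all in leaves, and none was above the floor. This pattern of all Ispir libraries above 3 counts and all TR43477 libraries at or below 3 was found for 35 genes (0.129%), and the reverse for 43 genes (0.158%), so it was not restricted to this gene. It covers the root libraries on which the gene was chosen, so nothing is read from how uncommon it was. Because the TR43477 libraries are at the floor, fold differences between genotypes are lower bounds, computed with 3 counts in each TR43477 library.

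In IL the ABC gene had 11, 29 and 8 counts in control and 47, 12 and 14 in salt, or 0.935 ± 0.544 and 2.16 ± 1.90 CPM. The first salt replicate, at 4.32 CPM, was set apart from the others at 0.757 and 1.39 CPM, and the log2 fold change of 1.17 ± 0.76 was not called (adjusted p = 0.32). In TL the counts were 0, 1 and 0 in control and 1, 2 and 3 in salt, so no fold is given for TL. No salt response of this gene was detectable at this depth in TL. The test of the difference between the leaf responses gave an adjusted p of 0.76. With TL at the floor this test cannot show whether the responses were alike, so nothing is read from it.

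Between the genotypes, the gene was at least 3.42-fold higher in control leaves of Ispir, a difference that was not called (adjusted p = 0.088), and at least 10.02-fold higher in salt-treated leaves of Ispir, which was called (adjusted p = 0.0066). With 0 counts in TR43477 roots, the gene could show no salt response there, which the study's list required. Its genotype differences in leaves are therefore not independent of that choice, and nothing is read from the call. All Ispir libraries were above all TR43477 libraries in both conditions, but groups without overlap were common, with 30.5% of all genes in control leaves and 59.2% in salt-treated leaves, and 22.9% of all genes were called in the latter. The bound in salt was carried in part by the first Ispir salt replicate, without which it was at least 4.99-fold and the adjusted p was 0.011. The call was also lost on leaving out any of the TR43477 salt libraries, with adjusted p of 0.018 to 0.029, and with all 12 leaf libraries in 1 fit (adjusted p = 0.0105).

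In roots the ABC gene was the only 1 of the 3 with lower values under salt, and this was in Ispir. Control IR had 103, 81 and 128 counts, or 6.56, 5.33 and 8.10 CPM (6.66 ± 1.39), and salt IR had 4, 7 and 8 counts, or 0.298, 0.417 and 0.503 CPM (0.406 ± 0.103), a 16.4-fold lower mean. Every TR library had 0 counts, in control and in salt. Ispir was thus at least 36.2-fold higher than TR43477 in control roots and at least 3.18-fold higher in salt-treated roots. Control IR was the highest of the 8 groups and stood clear of the rest, followed by salt IL, control IL and salt IR, whose ranges overlapped in sequence. In Ispir the tissue with the higher mean changed with treatment, from root in control, 7.12-fold above leaf, to leaf in salt, 5.32-fold above root. The share of all genes that change in this way was not computed, and roots chose the gene, so nothing is read from it.

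Counts of the genes beside the ABC gene were examined to see whether the genotype pattern extended along the chromosome. The nearest gene on the lower side, Phvul.001G130500 at a distance of 20393 bp, had 1948 counts in Ispir and 1780 in TR43477, and the nearest on the upper side, Phvul.001G130800 at 26158 bp, had 2730 and 3135. Of the 10 nearest genes, 5 on either side, 9 were counted above the floor in at least 1 TR43477 library and 6 in all 12, and in Ispir these numbers were 10 and 5. The exception, named after its values were seen, was Phvul.001G130400, with 7 counts in Ispir and 0 in TR43477.

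**Figure D3:**
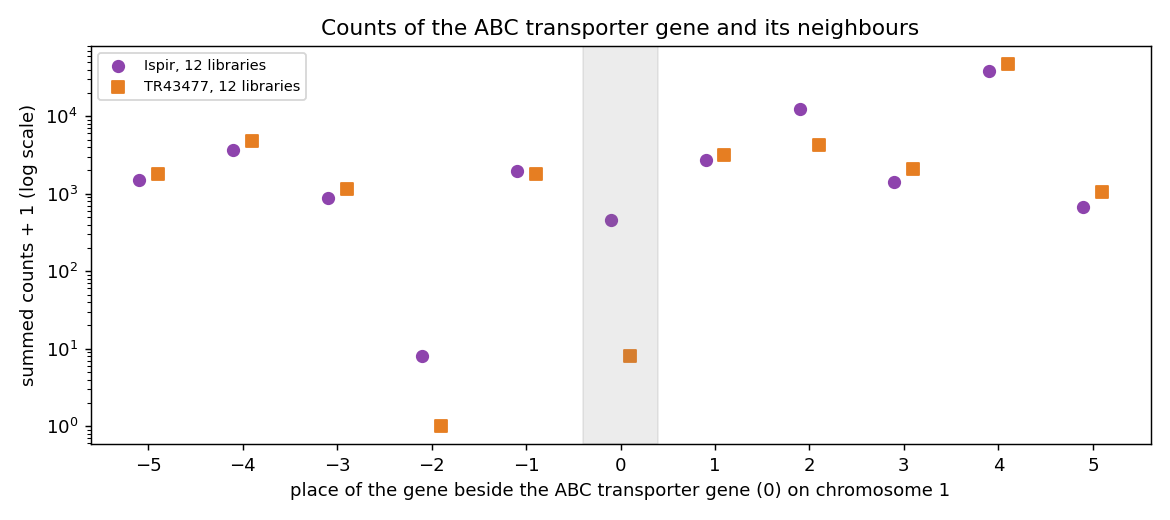
Summed counts plus 1 over the 12 Ispir and the 12 TR43477 libraries, on a log axis, for the ABC transporter gene at place 0 and the 5 nearest genes on either side by place on chromosome 1. The ABC gene has 452 counts in Ispir and 7 in TR43477, while the adjoining genes at places −1 and 1 have over 1000 in both.

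The genes beside the other 2 were examined in the same way. Beside the permease gene lie Phvul.001G076900, 72098 bp away, and Phvul.001G077100, 19290 bp away, and of its 10 nearest genes, 7 of which were tested in leaves, 0 were called in IL, 1 in TL, 2 in the difference between the leaf responses, 0 between control leaves and 2 between salt-treated leaves. Beside the sulfate gene lie Phvul.001G154100, 8267 bp away, and Phvul.001G154300, 43214 bp away, and of its 10 nearest genes, 9 of which were tested, 0 were called in IL, 1 in TL, 0 in that difference, 0 between control leaves and 5 between salt-treated leaves. For the ABC gene, with 9 or 10 tested, these counts were 0, 0, 1, 0 and 2. The shares of all genes called in these comparisons were 4.81%, 5.09%, 5.14%, 0.535% and 22.9%.

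The genes whose pattern was most like each of the 3 were found by Pearson's r of log2(CPM + 1) over all 24 libraries, among 20189 genes with a mean of at least 1 CPM. The libraries share genotypes, tissues and treatments, so r describes a shared order of groups and carries no p. For the permease gene the most alike were Phvul.007G060300 (r = 0.96) and Phvul.006G186600 (r = 0.94), and 12 genes had r above 0.9. Phvul.007G060300 had means of 1.52 CPM in control IR and 33.1 CPM in salt IR, and of 23.3 CPM in control TL and 106 CPM in salt TL. The same pair led when each tissue's mean was subtracted first, with r of 0.93 and 0.91, so their likeness did not rest on the difference between leaf and root.

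For the sulfate gene the most alike were Phvul.001G015700 (r = 0.83) and Phvul.007G170100 (r = 0.83), and no gene exceeded 0.9. Phvul.007G170100 had a mean of 21.8 CPM in control TL and 1.23 CPM in salt TL, and of 2.31 CPM in control IR and 6.92 CPM in salt IR. Its r was 0.90 after the tissue means were subtracted. For the ABC gene the most alike were Phvul.001G137800 (r = 0.82), with means of 10.8 to 20.2 CPM in the Ispir groups and 1.59 to 2.41 CPM in the TR43477 groups, and Phvul.004G158100 (r = 0.81), annotated with a legume lectin domain. The lectin-domain gene had 143, 284 and 589 counts in control IR and at most 2 counts in every other library. After subtraction of tissue means the most alike to the ABC gene was Phvul.003G284000, annotated as MYB domain protein 9 (r = 0.85). Among themselves the 3 transporter genes were not alike, with r of −0.40 to 0.16.

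**Figure D4:**
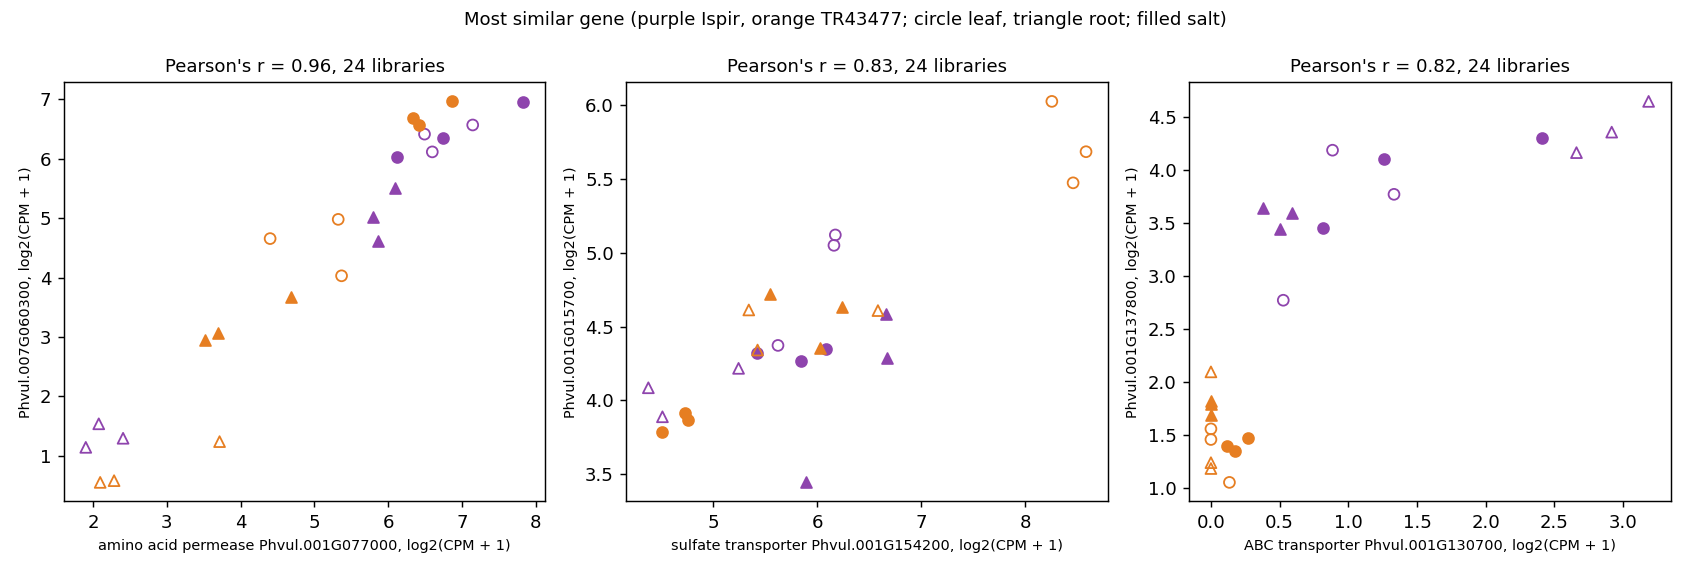
Each of the 3 genes (x axis) against the gene with the highest Pearson's r (y axis), both as log2(CPM + 1), over 24 libraries. Purple is Ispir and orange TR43477, circles are leaf and triangles root, and filled symbols are salt. The permease pair lies along a line (r = 0.96), both genes of the sulfate pair are highest in the control TL libraries (r = 0.83), and the ABC pair separates the genotypes (r = 0.82).

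Other transporter genes that the study listed from the same Ispir root response were examined in leaves, where all but 1 had not been chosen. Of 13 such genes, 12 were tested in IL, and 2 were called higher and 1 lower, where 2.66% of all genes were called higher and 2.15% lower. The median log2 fold change of the 12 was −0.55, beside −0.09 over all genes. Of the 2 called higher, 1 was Phvul.003G151700, an EamA-like transporter with a log2 fold change of 4.37 ± 0.31 in IL. It is also on the study's Ispir leaf list, so its value and its share in the counts and median above are a description. Phvul.007G100900, annotated as ABC transporter G family member 21, rose from 17.6, 25.4 and 20.4 CPM to 51.9, 55.3 and 46.5 CPM, a log2 fold change of 1.27 ± 0.18 (adjusted p = 0.0057). Phvul.007G231700, annotated as ammonium transporter 1 member 2, of a family that takes up ammonium, fell by 1.58 ± 0.21 on the log2 scale (adjusted p = 0.0050).

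In TL, 0 of the 12 tested genes were called by edgeR, with 3 at an unadjusted p under 0.05 and 1 called by DESeq2, and the median was −0.07. The share of all genes called in TL was 5.09%, so a count of 0 is near the background. The leaf list took the EamA-like gene, 1 of these 12, also for having no such response in TL, so its lack of a call is a description. In the difference between the leaf responses 1 of 12 was called, and this was the EamA-like gene, for which that contrast is not independent of the leaf list, beside 5.14% of all genes. Phvul.007G100900 differs from Phvul.001G130700, the ABC gene described above, in being counted in both genotypes: in TL it stood at 70.6, 70.7 and 75.9 CPM in control and at 110, 110 and 80.8 CPM in salt (log2 fold change 0.48, adjusted p = 0.12). Its control leaf level was lower in all Ispir libraries than in all TR43477 libraries, an absence of overlap shared by 30.5% of all genes, with a log2 difference of −1.74 that did not pass (adjusted p = 0.013).

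A second amino acid transporter gene, Phvul.002G235600, comes from the study's Ispir leaf list and gave another arrangement than the permease gene. It stood at 223, 259 and 209 CPM in control IL and at 59.8, 20.4 and 17.0 CPM in salt IL. In TL it stood at 48.8, 78.1 and 32.7 CPM in control and at 90.2, 76.1 and 93.7 CPM in salt (log2 fold change 0.71, adjusted p = 0.17). The gene was listed for a response in IL and no such response in TL, so its leaf values are a description. In roots, which had not been used to list it, its level was 3.08 to 6.14 CPM in all 12 libraries, with log2 fold changes of −0.21 in IR and −0.42 in TR and no call. Of the 8 transporter genes on the leaf list, the EamA-like gene above is also on the root list, and its log2 fold change of 2.63 in IR is a description. Of the other 7, 1 was called higher and 2 lower in IR, where 4.06% of all genes were called. The gene called higher was the S-type anion channel SLAH2-related gene Phvul.004G102800 (1.65, adjusted p = 0.0013). On the lower side were Phvul.001G155150, annotated as the C-terminus of a cation-transporting ATPase (−1.22, adjusted p = 0.0033), and Phvul.001G155201, annotated as an E1-E2 ATPase (−1.70, adjusted p = 0.0090). These 2 have close identifiers and similar log2 fold changes in IL (−5.06 and −5.50) and TL (−0.41 and −0.60). Whether they count as 2 independent genes was not tested. In TR 0 of the same 7 were called by edgeR or DESeq2, with 2 at an unadjusted p under 0.05, against 0.456% of all genes called. The EamA-like gene was not called in TR either, but the root list took genes with no such response there.

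Sulfate taken up by plants is reduced and built into cysteine, methionine and glutathione. The study's lists also held 5 genes of sulfur and glutathione metabolism, 1 from the leaf list, 3 from the root list and 1 from both. In TL, where 5.09% of all genes were called, 0 of the 5 were called and 0 had an unadjusted p under 0.05, and DESeq2 also called 0, with a median log2 fold change of −0.13 beside −0.09 over all genes. In IL, where 4.81% of all genes were called, 1 of the 5 was called. However, 2 of the 5 came from the leaf list, which took genes with a response in IL and no such response in TL. Nothing is therefore read from the counts in IL or TL. The called gene was the gene on both lists, Phvul.L005001, a methionine-gamma-lyase, an enzyme that breaks methionine down. Its log2 fold changes of 3.20 in IL and −0.13 in TL (adjusted p = 0.89) are likewise a description. Over so few genes, counts of 0 or 1 are near these shares of all genes.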

How the data were processed

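Reads were trimmed with Trimmomatic and aligned with HISAT2 to Phaseolus vulgaris genome 2.1, and the authors deposited raw counts per gene from SeqMonk 1.44.0 in 4 tables. Strand and multi-mapping rules of that counting are not given in the sources used here, so reads of near-identical family members could be split. The deposited log2 fold changes and p-values of the authors' comparisons were not used.

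Genes with at least 1 count in a comparison were tested with edgeR 4.0.16 (R 4.3.3; TMM, quasi-likelihood test, Benjamini-Hochberg adjustment over all genes), with the study's thresholds of a log2 fold change of 1 and an adjusted p of 0.01. Standard errors were derived from the fold change and the F statistic. Each salt or genotype comparison used its own 6 libraries and the interaction 12. The script was tested on simulated data. Alternatives were DESeq2 1.42.0, other scalings and filters, a joint fit, a replicate block and leaving out each library.

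Named genes were the 3 members, the 2 most alike by r, the nearest gene on either side, up to 2 rises and 2 falls of each list, and 2 further transporters. Members and lists were chosen with earlier results of these data known. The lists of 5 neighbours on either side were examined after values were seen. Of 27213 identifiers 0 matched the RefSeq table, and no sequences were used here.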

Additional observations from a re-analysis of the deposited data

Results flagged for a closer look

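The salt response of the sulfate transporter gene Phvul.001G154200 differed between the leaves of the genotypes by 3.61 on the log2 scale (Ispir minus TR43477), in the test of the difference itself. In Ispir leaves the log2 fold change was −0.21 and in TR43477 leaves it was −3.81. Its level in control TR43477 leaves was 304 to 382 CPM, and every other library of the series was at 100.9 CPM or less. The light-harvesting marker genes were lower in the same salt-treated TR43477 leaves, and their part in the difference was not tested.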

How the results depend on the processing

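Counts of called genes depended strongly on the tool. DESeq2 called 3169 genes in IL, 3650 in TL, 3330 in the interaction and 2191 between control leaves, against 1073, 1153, 1199 and 122 by edgeR. One fit of all 12 leaf libraries called 2423 in TL, 1754 between control leaves and 2764 (5159 in the separate fit) between salt-treated leaves. Leaving out 1 library gave 91 (without Ispir salt replicate 2) to 1412 in IL, 25 (without TR43477 salt replicate 1) to 2085 (without TR43477 control replicate 3) in TL, 291 (without TR43477 salt replicate 2) to 1546 in the interaction, 0 (without any Ispir control replicate or TR43477 control replicate 1) to 101 between control leaves, and 3927 to 5462 between salt-treated leaves.

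The sulfate gene's log2 fold change in TL stayed between −3.89 and −3.72 without 1 library and its difference in salt-treated leaves between 1.00 and 1.34. The ABC gene's fitted difference in salt-treated leaves was 2.81 to 4.25 without 1 library and 3.85 (adjusted p = 0.0105) with all 12 leaf libraries, and it depends on the prior count. The permease gene passed with DESeq2 in TL (1.49) and between control leaves (1.69), and its uncalled values changed sign without 1 library in IL (−0.32 to 0.61) and in salt-treated leaves (−0.09 to 0.83). The sulfate gene passed between control leaves with DESeq2 (−2.46), all 12 libraries (−2.44) and filterByExpr (−2.43), but not with upper-quartile normalization (−2.37), the replicate block (−2.43, adjusted p = 0.021) or without any 1 library (−2.52 to −2.27). Scaling by library size only gave the sulfate gene 279 CPM in control TL and the permease gene 69.0 CPM in salt IR.

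Replicate numbers showed no clear pairing of the leaf samples: correlations of same-numbered deviations were −0.138 to 0.232 in IL, −0.162 to −0.026 in TL, −0.017 to 0.363 between control leaves and −0.146 to 0.0062 between salt-treated leaves, and plants correlated best with their own number in 2, 0, 1 and 0 of 3 cases. In roots this was so in 2 of 3 cases in IR, 2 in TR, 0 between control roots and 1 between salt-treated roots. With 3 replicates in each group, this check cannot exclude a pairing. With the replicate block 0 genes were called in TL and 0 between control leaves, 1032 in IL, 1172 in the interaction and 4192 between salt-treated leaves. With the block the sulfate gene's TL value was −3.81 (adjusted p = 0.014), its interaction 3.61 (adjusted p = 0.0011), and the ABC gene's value in salt-treated leaves 3.56 (adjusted p = 0.0116).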
